A study of Mus musculus with 9 samples.

Results

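The 9 genes described here, Crkl, Dgcr2, Slc25a1, Ranbp1, Dgcr8, Txnrd2, Gnb1l, Cldn5 and Hira, lie on both sides of Tbx1 on mouse chromosome 16, in the stretch that corresponds to the human 22q11.2 interval. They were listed by name, without using any measured value, out of 22350 protein-coding genes on chromosomes 1 to 19 and X. For each gene, open chromatin was read as the ATAC-seq peaks whose midpoint fell within the gene body or 5 kb on either side of it (genome build mm9), and Tbx1 itself was left out. Own-promoter peaks had their midpoint within 1 kb of an annotated transcription start site (TSS) of the gene, distal peaks lay beyond 1 kb of every annotated TSS, and the few peaks at the TSS of another gene were kept apart.

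ATAC-seq marks DNA that a transposase can enter, and a peak is an interval where a caller found more cut sites than in its surroundings. The study profiled GFP-positive, DAPI-negative cells sorted from Swiss Webster mouse embryos at E9.5, with 3 libraries in each of 3 groups and the Rosa26-GFPflox/+ reporter in all of them. Tbx1-Cre Ctrl embryos were Tbx1Cre;Rosa26-GFPflox/+, and Tbx1-Cre cKO embryos were Tbx1Cre/flox;Rosa26-GFPflox/+, so that Tbx1 was lost from the cells that express Cre from the Tbx1 locus. Mesp1-Cre embryos were Mesp1Cre;Rosa26-GFPflox/+. All 6 Tbx1-Cre libraries, Ctrl included, carried the Cre allele at Tbx1, on the chromosome that holds these 9 genes. The study states that this allele inactivates its copy of Tbx1, so Ctrl embryos were heterozygous for Tbx1, unlike Mesp1-Cre embryos. The floxed allele came through the dams of the cKO embryos, so effects of the genotype and of the floxed chromosome 16 around Tbx1 cannot be told apart. Cells marked by Tbx1-Cre come from mesoderm, endoderm and ectoderm, whereas Mesp1-Cre marks mesoderm and its endothelial descendants. The labels name pharyngeal apparatus and heart for Mesp1-Cre and add the back for both Tbx1-Cre groups. Cre line, Tbx1 copy number and dissection therefore cannot be told apart when Mesp1-Cre is compared with Ctrl. The study's methods describe pharyngeal tissue taken without the heart, so the labels and the methods differ on the dissection. Each library came from a small pool of embryos, and the p-values measure the spread between such pools.

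The human 22q11.2 region is deleted from a single chromosome in 22q11.2 deletion syndrome, in which heart outflow tract, thymus, parathyroid and craniofacial structures are often affected. TBX1, a T-box transcription factor of the pharyngeal apparatus, is the gene of that interval most closely tied to these malformations, and its neighbours serve quite different functions. Crkl is an adaptor that carries signals from growth factor receptors, Hira is a chaperone that deposits histone H3.3, and Dgcr8 works with Drosha to cut primary microRNA transcripts. Ranbp1 regulates the Ran GTPase in nuclear transport. Slc25a1 is the mitochondrial citrate carrier, and Txnrd2 is the mitochondrial thioredoxin reductase. Cldn5 is a tight junction protein of endothelial cells, Dgcr2 is a transmembrane protein with features of an adhesion receptor, and Gnb1l is a WD40-repeat protein.

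The lists differed in length before any gene was considered. Ctrl libraries held 43298 to 49490 peaks, cKO libraries 19772 to 29251 and Mesp1-Cre libraries 42650, 25485 and 30535, so that Mesp1-Cre replicate 1 stood apart from the other Mesp1-Cre libraries. The length of that list is not among those in the study's summary of its samples, so whether it is the library the study used is not known, and the main Mesp1-Cre differences are given with and without it. Mean list length was 47.7% lower in cKO than in Ctrl, and this was unequal between classes, with 16.8% fewer peaks within 1 kb of a TSS and 64.4% fewer distal peaks. The lists give intervals without scores or read counts, so sequencing depth cannot be read from them, and shorter lists from depth, library quality or cell state cannot be told apart. Mean Mesp1-Cre lists held 9.40% fewer peaks within 1 kb of a TSS and 40.2% fewer distal peaks than Ctrl. Many of the counts for the 9 genes are therefore set beside the same count over the whole genome. At the targeted gene, the Tbx1 window held 3, 2 and 2 peaks in Ctrl, 0 in each cKO library and 1 in each Mesp1-Cre library. The midpoints of these peaks lay outside the Tbx1 gene body, so the counts do not test the deletion. Fewer peaks in every cKO library than in every Ctrl library were found at 14.1% of all genes with a peak. All comparisons used exact two-sided permutation tests of 3 against 3 libraries, in which p cannot go below 0.1. Of 9 endothelial marker genes, 4, 6 and 5 had a promoter peak in Ctrl, 3 in each cKO library and 6, 4 and 4 in Mesp1-Cre. Of 7 matched pharyngeal mesoderm markers, 4, 5 and 5 had a promoter peak in Ctrl, 3, 4 and 2 in cKO and 5, 4 and 4 in Mesp1-Cre, with Isl1 at a peak in all 9 libraries. Of 7 pharyngeal endoderm markers, 3, 2 and 5 had a promoter peak in Ctrl, 2, 1 and 1 in cKO and 3, 1 and 3 in Mesp1-Cre. Of 6 ectoderm, placode and otic markers, 4, 4 and 3 had one in Ctrl, 3, 2 and 2 in cKO and 3, 3 and 4 in Mesp1-Cre. Of 4 blood markers only Hbb-y had one, in Mesp1-Cre replicates 1 and 3, and neither neural crest marker had a peak in any library.

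Across the 9 windows the peaks of all libraries merged into 31 regions, of which 11 were at own promoters, 3 at the TSS of another gene and 17 distal. A peak was present in all 9 libraries at 13 regions, 8 of them own promoters and 5 distal. The sequences of distal regions are shown first. Only 1 region had a peak in every Ctrl library and none in any cKO library. It lies at chr16:18509353-18510221 in an intron of Gnb1l, 10792 bp from the nearest Gnb1l TSS and 78.3 kb from the Tbx1 TSS. The bases shared by the peaks of all 6 libraries that had it, chr16:18509564-18509811 (plus strand, mm9), follow, with 48.8% G and C and no match to any of the 8 motifs searched. How common such matches are at distal regions differs between motifs. In 200 bases at each of 55086 distal regions of the genome, CCAAT (NFY) was present in 21.2% and GGGCGG (SP) in 8.24%. The T-box motif AGGTGTGA was present in 0.693% and the shorter GGTGTGA in 2.77%.

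Gnb1l intron, no cKO peak: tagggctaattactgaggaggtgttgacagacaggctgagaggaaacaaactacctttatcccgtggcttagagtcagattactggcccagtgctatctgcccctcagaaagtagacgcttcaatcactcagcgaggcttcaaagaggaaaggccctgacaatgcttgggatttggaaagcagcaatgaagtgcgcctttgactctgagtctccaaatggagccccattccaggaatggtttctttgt

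Further along the same gene, an intronic region with a peak in all 9 libraries is set beside it. Its shared bases are chr16:18555592-18555771 (plus strand, mm9), 64.4% G and C. Capitals mark GGGCGG, the SP box, and no other searched motif is present in these bases. Over their whole merged lengths, both Gnb1l regions hold 1 match to GGGCGG and 1 to CCAAT.

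Gnb1l intron, peak in all libraries, nearest to Tbx1: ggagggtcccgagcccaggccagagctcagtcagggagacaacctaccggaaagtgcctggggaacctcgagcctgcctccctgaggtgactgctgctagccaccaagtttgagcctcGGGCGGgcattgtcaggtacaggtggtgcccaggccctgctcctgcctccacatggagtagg

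Beside Slc25a1, the only intergenic distal region with a peak in all 9 libraries lies 5398 bp from the nearest TSS, at chr16:17921603-17922474. The first 300 of its 541 shared bases, chr16:17921819-17922118 (plus strand, mm9), are shown with the SP box in capitals.

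Slc25a1 intergenic, peak in all libraries: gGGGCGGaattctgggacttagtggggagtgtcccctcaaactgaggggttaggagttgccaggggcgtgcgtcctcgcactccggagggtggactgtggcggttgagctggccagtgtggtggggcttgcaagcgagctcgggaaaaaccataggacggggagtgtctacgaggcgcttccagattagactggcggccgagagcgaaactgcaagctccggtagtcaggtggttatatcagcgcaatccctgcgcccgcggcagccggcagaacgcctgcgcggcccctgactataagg

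The promoters of the 9 genes were rich in G and C. In the 300 bases before the TSS, G and C made up 57.3% (Hira) to 73.7% (Dgcr8), against a median of 53.3% over 22332 promoters of other genes. The ratio of observed to expected CpG ran from 0.505 at Cldn5 to 1.10 at Ranbp1, with a median of 0.484 over other promoters. On either strand, GGGCGG (SP) was present in 8 of 9 promoters and in 41.5% of the others, and CCAAT (NFY) in 7 of 9 and 38.9%. TGACGTCA (CRE) was present at Ranbp1 and Crkl and in 2.02% of other promoters, GCGCATGC (NRF1) at Ranbp1 alone and in 2.95%, and the shorter T-box motif GGTGTGA at Gnb1l alone and in 3.82%. The full T-box motif AGGTGTGA, which contains the shorter one, was in 0 of 9 and in 1.18%, CCGGAAG (ETS) in 0 and in 8.88%, and AAGATGGC (YY1) in 0 and in 1.93%. The last 120 bases before the TSS are given for Crkl, with a peak in every library, and for Cldn5, where the peak was most often missing. At Crkl (chr16:17451960-17452079) the capitals mark CCAAT on the minus strand and then the CRE. At Cldn5 (chr16:18776820-18776939) they mark CCAAT on the minus strand at both earlier places and then GGGCGG on the minus strand. The merged peak region of Cldn5, chr16:18776900-18777985, covers only the last part of the bases shown. Both CCAAT matches lie outside that region, and the GGGCGG match lies at its edge.

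Crkl promoter: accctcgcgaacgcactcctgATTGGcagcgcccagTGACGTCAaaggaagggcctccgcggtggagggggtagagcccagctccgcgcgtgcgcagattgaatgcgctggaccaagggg
Cldn5 promoter: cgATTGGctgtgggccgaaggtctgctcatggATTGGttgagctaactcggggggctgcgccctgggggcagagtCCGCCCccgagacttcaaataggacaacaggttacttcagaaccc

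Promoters of the neighbours of Tbx1 stayed in the peak lists with or without Tbx1. Of the 9 genes, 8 had an own-promoter peak in all 9 libraries, and the exception was Cldn5. The same held for 48.6% of all protein-coding genes. All 9 had an own-promoter peak in each Ctrl library, and 8, 9 and 8 had one in cKO replicates 1 to 3. Own-promoter peaks numbered 11, 12 and 10 in Ctrl and 10, 11 and 9 in cKO, so the groups overlapped (difference of means -1, exact permutation p = 0.5). Mesp1-Cre libraries had 13, 8 and 11, also overlapping Ctrl.

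Distal peaks were fewer in cKO on average, by a smaller share than the 64.4% of the whole genome. The 9 windows held 14, 10 and 8 distal peaks in Ctrl, 7, 8 and 5 in cKO and 10, 9 and 9 in Mesp1-Cre. The cKO mean was 37.5% lower than that of Ctrl, with 1 cKO library level with the lowest Ctrl library (10.7 ± 3.06 and 6.67 ± 1.53, SD, n = 3; exact permutation p = 0.2). The cKO difference of -4 was -2.33 without Ctrl replicate 1. For Mesp1-Cre the mean was 12.5% lower than that of Ctrl, against 40.2% for distal peaks of the whole genome. Mesp1-Cre replicates 1 to 3 held 26501, 11973 and 15869 distal peaks genome-wide, so the 40.2% depends on replicate 1. Neither percentage was computed without that library. With all classes summed, the windows held 27, 24 and 19 peaks in Ctrl, 19, 20 and 14 in cKO and 25, 20 and 21 in Mesp1-Cre. The total was 24.3% lower in cKO than in Ctrl, with overlapping groups (exact permutation p = 0.3). Mesp1-Cre minus Ctrl was -1.33 (exact permutation p = 0.8), -2.83 without Mesp1-Cre replicate 1 and between -3.5 and 0.5 over all libraries left out in turn. Keeping in every library only as many of the widest peaks as the shortest list holds turned the cKO difference in the total from -5.67 to 1.33 and in distal peaks from -4 to 1.

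**Figure D1:**
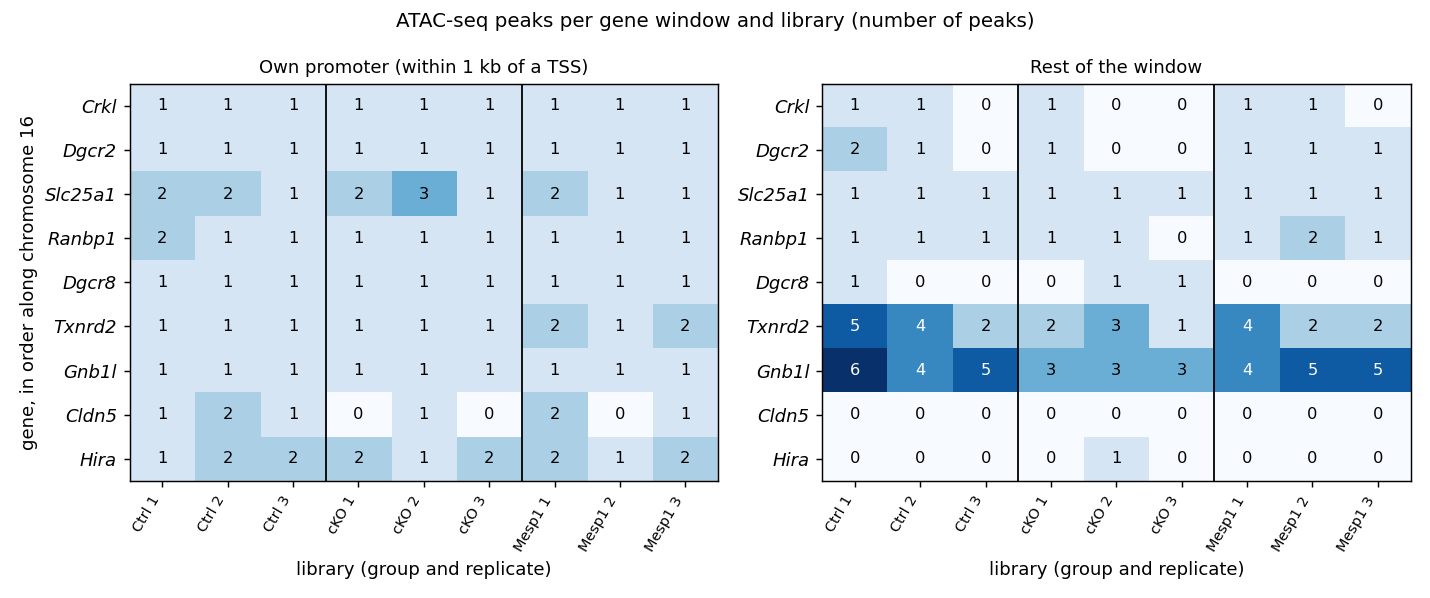
Number of peaks in each gene window (rows, in chromosome order) and library (columns, 3 per group), at own promoters (left) and in the rest of the window, that is distal peaks and peaks at the TSS of another gene (right). Own-promoter cells hold at least 1 peak everywhere but at Cldn5, and Gnb1l and Txnrd2 hold most of the other peaks.

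Set against lists of different length, the windows held a larger share of the cKO and Mesp1-Cre lists than of the Ctrl lists. Per 10000 peaks of a library, the 9 windows held 5.46, 5.54 and 4.04 in Ctrl, 6.50, 8.32 and 7.08 in cKO and 5.86, 7.85 and 6.88 in Mesp1-Cre. Neither the cKO nor the Mesp1-Cre values overlapped Ctrl (differences 2.28 and 1.85, exact permutation p = 0.1 for each, the smallest possible). The Mesp1-Cre difference was 2.35 without Mesp1-Cre replicate 1 and 0.506 with equal numbers of the widest peaks. Counting within the gene bodies alone, the cKO difference was 0.794 (exact permutation p = 0.5), and with equal numbers of the widest peaks it was 0.674 (exact permutation p = 0.6). Among peaks within 1 kb of any TSS, the windows held 7.52, 8.96 and 6.90 per 10000 such peaks in Ctrl, and 8.32, 8.70 and 7.23 in cKO, so the groups overlapped (difference 0.290, exact permutation p = 0.8). Among distal peaks the windows held 4.35, 3.62 and 2.58 per 10000 distal peaks in Ctrl and 4.72, 7.82 and 6.84 in cKO. Each cKO value stood above each Ctrl value (difference 2.95, exact permutation p = 0.1, the smallest possible), the closest pair being 4.35 and 4.72. Every library's distal count includes a Gnb1l interval, 54.7 kb from the Tbx1 TSS, whose bases partly occur elsewhere on chromosome 16. Leaving that interval out brings the closest pair almost level, with the cKO value still just above, and no test was run without it. Mesp1-Cre values of 3.77, 7.52 and 5.67 overlapped Ctrl (difference 2.14, exact permutation p = 0.2), and the difference was 3.08 without Mesp1-Cre replicate 1 and 1.21 without Mesp1-Cre replicate 2. The cKO and Mesp1-Cre comparisons share the Ctrl libraries.

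**Figure D2:**
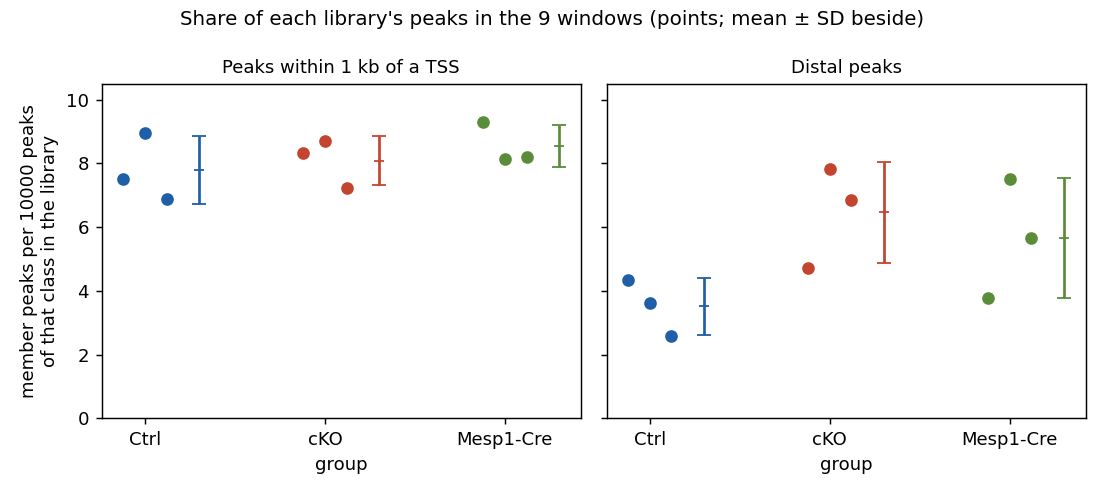
Peaks in the 9 windows per 10000 peaks of the same class in the library (vertical axis), for peaks within 1 kb of a TSS (left) and distal peaks (right), with 1 point per library and the mean ± SD (n = 3) beside each group. The groups overlap at the TSS, and for distal peaks the lowest cKO library, at 4.72, lies above the highest Ctrl library, at 4.35.

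The same was seen region by region. Of the 7 distal regions that had a peak in all 3 Ctrl libraries, 5 also had a peak in all 3 cKO libraries, whereas 27.4% of all such regions in the genome did. The 7 regions were wider than most, with a median Ctrl width of 674 bp against 540 bp, and among genome regions of similar Ctrl width 39.8% were kept. These 5 lie at only 3 genes, Gnb1l, Txnrd2 and Slc25a1, so they are few and not independent of each other. They include the Gnb1l interval 54.7 kb from the Tbx1 TSS, whose bases partly occur elsewhere on chromosome 16. At TSSs, 8 of 10 such regions were kept in all 3 cKO libraries, near the 79.4% of the genome. Of 29 regions with a peak in Ctrl or cKO, 1 was covered in every Ctrl library but in none of cKO, against 7.62% in the genome. The only region with a cKO peak and no Ctrl peak was a 293-bp interval in an intron of Hira, seen in cKO replicate 2. Of 8 regions seen in a single library, 7 were seen in a Ctrl library, the group with the longest lists. Genome shares were not computed for single-library regions or for regions with a cKO peak and no Ctrl peak.

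Gnb1l, the nearest member to Tbx1 on its centromeric side, was the only gene of the 9 with fewer peaks in every cKO library than in every Ctrl library. This held for 14.1% of all protein-coding genes with a peak, and for 57.5% of genes that, like Gnb1l, averaged 5 to 7 Ctrl peaks, so the count is close to that of genes of its kind. Its window held 7, 5 and 6 peaks in Ctrl, 4, 4 and 4 in cKO and 5, 6 and 6 in Mesp1-Cre (cKO minus Ctrl -2, exact permutation p = 0.1, the smallest possible). Each library had a single own-promoter peak, and the difference was wholly distal, with 6, 4 and 5 in Ctrl and 3 in each cKO library. When only the widest peaks were kept in equal number, the difference was 0.667.

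The region of Gnb1l shown first was 591, 248 and 676 bp wide in Ctrl, had no peak in cKO and was 684, 655 and 437 bp wide in Mesp1-Cre. A peak in all 3 Ctrl, no cKO and all 3 Mesp1-Cre libraries was found at 0.964% of merged regions of the genome. The 248-bp peak of Ctrl replicate 2 was the narrowest of the 6. With the widest 75% of each list, or where sharing a peak required 50% of each interval to overlap, no region in the windows met the criterion. Gnb1l had 3 intronic regions with a peak in all 9 libraries, and the widths of 2 of them are given here. The kept region nearest to Tbx1, at 32.5 kb, measured 325, 363 and 264 bp in Ctrl, 533, 226 and 338 bp in cKO and 298, 229 and 266 bp in Mesp1-Cre. The other, 54.7 kb from the Tbx1 TSS, was 239 to 259 bp wide in 8 libraries and 522 bp in Ctrl replicate 2. Its shared bases have 31.6% G and C, and 5 of 49 words of 36 bases taken from them occur elsewhere on chromosome 16, which was the case for none of the other distal regions examined. A further 3 intronic regions of Gnb1l were each seen in a single Ctrl library, and an interval over a coding exon, 35.5 kb from the Tbx1 TSS, was seen only in Mesp1-Cre replicates 2 and 3 (242 and 284 bp).

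**Figure D3:**
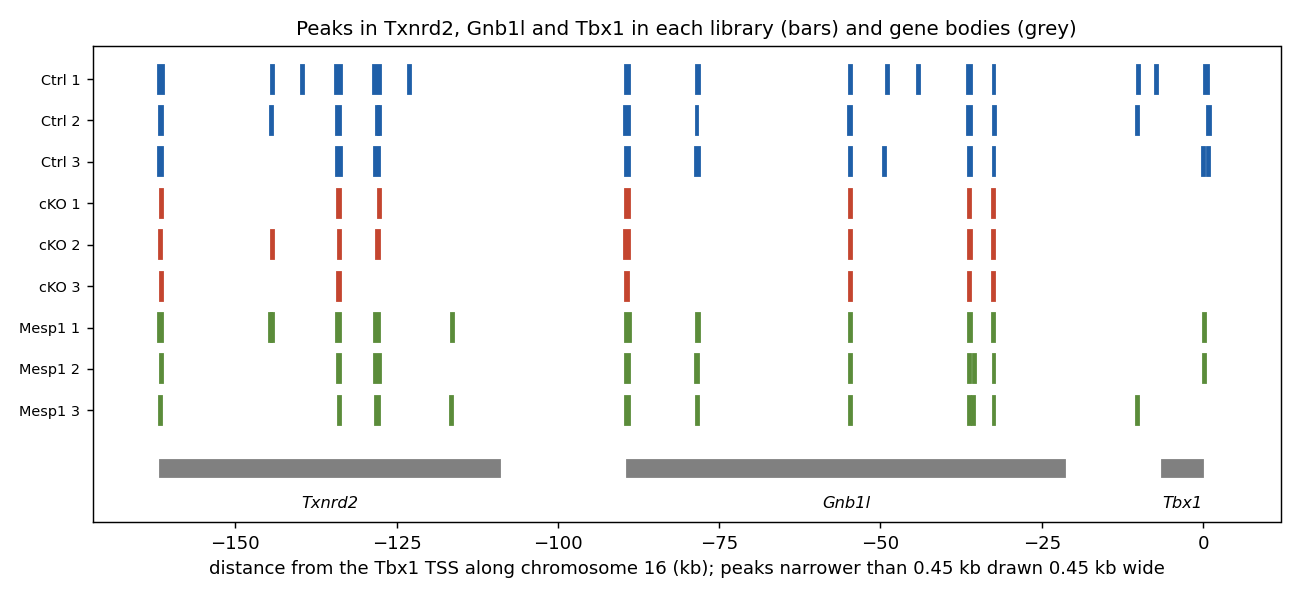
Peaks of each library (1 row per library, bars drawn to scale or at 0.45 kb if narrower) and the gene bodies of Txnrd2, Gnb1l and Tbx1 (grey), against distance from the Tbx1 TSS in kb. The interval 78.3 kb to the left of the Tbx1 TSS is marked in Ctrl and Mesp1-Cre and empty in all 3 cKO rows, those 54.7 and 32.5 kb to the left are marked in every row, and the cKO rows are empty at Tbx1.

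Txnrd2, next along the chromosome, also held most of its peaks within its introns. Its window held 6, 5 and 3 peaks in Ctrl, 3, 4 and 2 in cKO and 6, 3 and 4 in Mesp1-Cre, with overlap between Ctrl and cKO (exact permutation p = 0.3). An intronic region at chr16:18453522-18454611, the widest of this gene with a peak in all 9 libraries, measured 1090, 688 and 855 bp in Ctrl, 684, 445 and 651 bp in cKO and 795, 536 and 336 bp in Mesp1-Cre. A second one, 128 kb from the Tbx1 TSS, covered 1295, 576 and 907 bp in Ctrl, 200 and 614 bp in cKO replicates 1 and 2 with none in replicate 3, and 1066, 1001 and 806 bp in Mesp1-Cre. A peak 183 bp from an alternative Txnrd2 TSS was seen only in Mesp1-Cre replicates 1 and 3. The main promoter was narrow in cKO at 270, 592 and 200 bp against 848, 545 and 796 bp in Ctrl, the groups overlapping.

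Cldn5, the endothelial gene, had the least stable promoter of the 9. Its window held 1, 2 and 1 peaks in Ctrl, 0, 1 and 0 in cKO and 2, 0 and 1 in Mesp1-Cre, all within 1 kb of its TSS and over its coding exon (exact permutation p = 0.3 for cKO against Ctrl). These peaks covered 806, 593 and 265 bp in Ctrl, 0, 261 and 0 bp in cKO and 787, 0 and 259 bp in Mesp1-Cre. The summed promoter width of the 9 endothelial markers was 3253 to 3740 bp in Ctrl, 1422 to 2043 bp in cKO and 1759 to 3426 bp in Mesp1-Cre, with Cdh5, Pecam1 and Tie1 at 0 in all 9 libraries. Other marker lists were narrower in cKO too. Pharyngeal mesoderm markers summed to 3687 to 4929 bp in Ctrl and 1884 to 2650 bp in cKO. Pharyngeal endoderm markers had 776 to 1218 and 248 to 449 bp, and ectoderm, placode and otic markers 2433 to 2833 and 788 to 1711 bp. A lower mean promoter width in cKO was found at 96.1% of all genes. The part of endothelial content in the Cldn5 values was not tested, and fewer endothelial cells and a less open promoter per cell cannot be told apart in sorted bulk libraries.

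At the other genes the numbers of peaks differed little and the groups overlapped. Crkl had 2, 2 and 1 peaks in Ctrl, 2, 1 and 1 in cKO and 2, 2 and 1 in Mesp1-Cre, a single own-promoter peak in each library and the rest near the TSS of Aifm3. Hira had 1, 2 and 2 in Ctrl, 2 in each cKO library and 2, 1 and 2 in Mesp1-Cre, almost all of them pieces of a broad promoter region whose TSS lies 270 bp from that of Mrpl40. Slc25a1 had 3, 3 and 2 in Ctrl, 3, 4 and 2 in cKO and 3, 2 and 2 in Mesp1-Cre, and its intergenic region was 848, 615 and 636 bp wide in Ctrl, 737, 577 and 630 bp in cKO and 659, 617 and 787 bp in Mesp1-Cre. Ranbp1, which shares its promoter with Trmt2a at a distance of 53 bp, had 3, 2 and 2 in Ctrl, 2, 2 and 1 in cKO and 2, 3 and 2 in Mesp1-Cre. Dgcr8 had 2, 1 and 1 in Ctrl, 1, 2 and 2 in cKO and 1 in each Mesp1-Cre library. The edge of its window cuts the Ranbp1 promoter peak, which was counted for Dgcr8 as well in 3 of 9 libraries, and its own promoter gave 1 peak throughout. Dgcr2 had 3, 2 and 1 in Ctrl, 2, 1 and 1 in cKO and 2 in each Mesp1-Cre library. An intronic interval of Dgcr2 at chr16:17873023-17873708, singled out after its values were seen, had a peak in Ctrl replicate 1 (494 bp), in no cKO library and in all Mesp1-Cre libraries (662, 204 and 248 bp). Over its whole merged length this interval holds 1 match to the T-box motif AGGTGTGA and 1 to CCAAT. The 200 bases at the centre of the part shared by its peaks hold 0 matches to either. No genome share was computed for whole merged regions. The mean count was lower in cKO at 6 of 9 genes, against 63.0% of all genes, and no gene of the 9 had fewer peaks in every Mesp1-Cre than in every Ctrl library, where 6.31% of all genes did.

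Promoter peaks had lower mean widths in cKO. Averaged over the 8 genes with a promoter peak in every Tbx1-Cre library, the width was 1163, 994 and 1064 bp in Ctrl, 829, 851 and 666 bp in cKO and 1032, 754 and 961 bp in Mesp1-Cre. The Ctrl and cKO values did not overlap (1074 ± 85.3 and 782 ± 101 bp, SD, n = 3; difference -292 bp, exact permutation p = 0.1, the smallest possible). Every cKO library lay below every Ctrl library at 4 of 8 genes, Dgcr8, Crkl, Hira and Slc25a1, against 42.3% of all genes, and the mean was lower at 8 of 8, against 96.1%. Narrower promoter peaks were therefore the rule in these lists, with a median over all genes of -21.25%. For Mesp1-Cre against Ctrl, 1 of 8 genes, Ranbp1, was narrower in every library, against 19% of all genes.

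**Figure D4:**
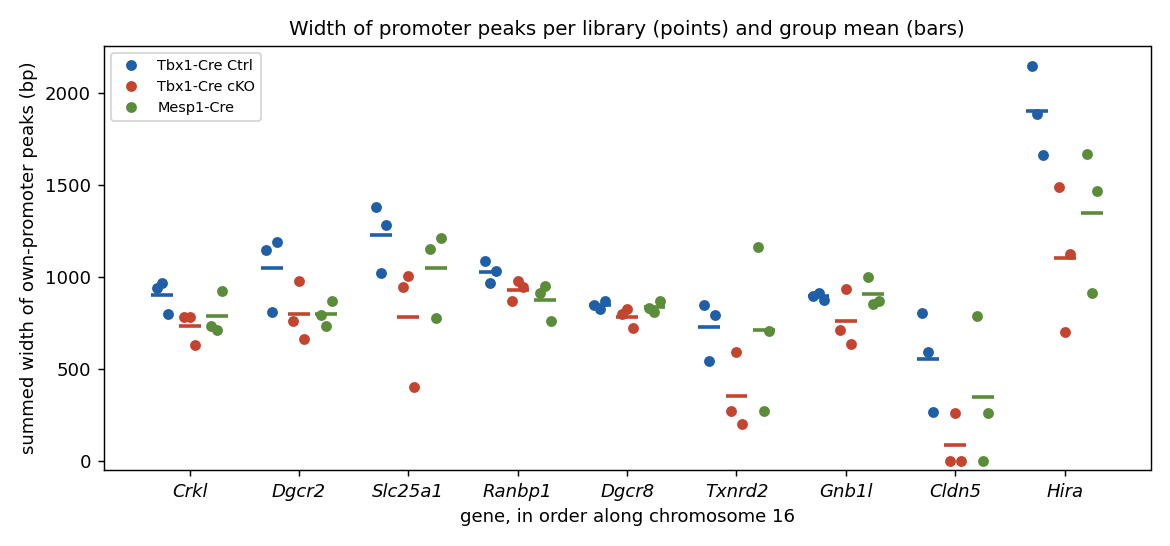
Summed width of own-promoter peaks in bp (vertical axis) for each gene in chromosome order, with 1 point per library and a bar at the mean of each group (n = 3). Hira is the widest, at 1667 to 2150 bp in Ctrl, Dgcr8 the most even, and Cldn5 is at 0 bp where a library had no peak.

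The size of the difference varied between genes. Hira, the histone chaperone, had the widest promoter peaks, at 2150, 1887 and 1667 bp in Ctrl, 1488, 702 and 1127 bp in cKO and 1669, 914 and 1468 bp in Mesp1-Cre. Its cKO mean differed from Ctrl by -41.8% and varied widely between libraries (exact permutation p = 0.1). Slc25a1 measured 1379, 1024 and 1284 bp in Ctrl, 944, 1007 and 401 bp in cKO and 1153, 780 and 1214 bp in Mesp1-Cre, a difference in means of -36.2% (exact permutation p = 0.1). Crkl measured 943, 970 and 797 bp in Ctrl, 782, 784 and 631 bp in cKO and 732, 711 and 923 bp in Mesp1-Cre, a difference of -18.9% between cKO and Ctrl (exact permutation p = 0.1). Dgcr8, with the smallest difference, measured 851, 829 and 868 bp in Ctrl, 801, 826 and 724 bp in cKO and 831, 809 and 873 bp in Mesp1-Cre. Its cKO libraries were all below Ctrl, with a difference in means of -7.73% (exact permutation p = 0.1), but the closest values, 829 and 826 bp, nearly met. At Ranbp1 the widths of 1086, 970 and 1034 bp in Ctrl overlapped 873, 978 and 947 bp in cKO and did not overlap 915, 950 and 764 bp in Mesp1-Cre. Gnb1l measured 900, 912 and 878 bp in Ctrl and 710, 937 and 636 bp in cKO, and Dgcr2 1150, 812 and 1189 bp in Ctrl and 760, 980 and 664 bp in cKO, both with overlap.

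Each width was also ranked among all own-promoter widths of its library. The ranked set was not the same in each group, since 61.1% to 62.0% of genes had an own-promoter peak in Ctrl and 52.3% to 57.6% in cKO, so the percentiles are given as a description. On this scale Dgcr8 stood at the 44.5, 48.6 and 48.2 percentile in Ctrl and at 62.2, 63.1 and 62.9 in cKO, and Ranbp1 at a mean of 67.3 in Ctrl and 78.8 in cKO. Hira stood at 98.5, 98.0 and 94.9 in Ctrl and at 97.7, 46.5 and 94.3 in cKO, so its low mean in cKO came from replicate 2. Crkl had a mean of 53.6 in Ctrl and 55.1 in cKO, Gnb1l 52.8 and 57.6, and Dgcr2 66.5 and 62.9. Txnrd2 had 32.7 in Ctrl and 12.7 in cKO and Slc25a1 80.8 and 59.3, with overlapping groups.

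Of the 27 other genes of the syntenic interval, 25 had a peak in Ctrl or cKO and 16 of the 27 had an own-promoter peak in all 9 libraries, against 48.6% of all protein-coding genes. Outside the windows already counted, they held 38, 32 and 33 peaks in Ctrl, 31, 17 and 20 in cKO and 32, 22 and 25 in Mesp1-Cre. The cKO mean was 34.0% lower with no overlap (difference -11.7, exact permutation p = 0.1, the smallest possible), while the lists as a whole were 47.7% shorter. With equal numbers of the widest peaks the difference was -0.667 (exact permutation p = 0.9), and per 10000 peaks of the library the mean was 7.36 in Ctrl and 9.26 in cKO (exact permutation p = 0.3). Every cKO library was below every Ctrl library at 1 of them, the Nogo receptor gene Rtn4r (2, 2 and 2 in Ctrl, 1, 0 and 1 in cKO), and above at 0. A lower count in every cKO library was found at 14.1% of all genes with a peak.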

How the data were processed

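ATAC-seq peak lists of 9 libraries, 3 per group, were used. The authors trimmed the reads, aligned them to mm9 with Bowtie2 2.3.4.3, removed duplicates and mitochondrial reads, and ran the MACS2 peak caller on every library by itself, without pooling replicates. The deposited files hold a chromosome, a start and an end per peak, with no score, coverage or read count. Groups were taken from the labels. Genes and TSSs came from GENCODE vM1 on NCBIM37 (mm9), and sequence from the same build. Peaks were assigned by midpoint, and regions were merged over libraries with an overlap of at least 1 bp. Differences were tested with exact two-sided permutation tests over 20 relabellings of 3 against 3 libraries (smallest p 0.1), with Python 3.11.15, numpy 2.4.6 and scipy 1.17.1. The steps were tested on simulated data with planted peaks. No multiple testing correction was applied, since no test can go below 0.1. All 9 genes were named. Regions were named when present in all Ctrl and no cKO libraries, in a single group in full, or in all 9 libraries as the widest of a gene, and of the other genes of the interval those without overlap between Ctrl and cKO. A few items withheld for evaluation are not reported here. Other regions were chosen after their values were seen. The genes, marker lists and motifs were chosen with earlier results of these data known. Alternatives covered the peak list, window, promoter distance, assignment of peaks, Tbx1 peaks, libraries left out and the replicate numbers as a block. The shares per 10000 peaks of a class, and the alternatives for the Mesp1-Cre share, were added after seeing the data. The absence of scores limits precision, and peak width stands in for size.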

Additional observations from a re-analysis of the deposited data

How the results depend on the processing

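Keeping equal numbers of the widest peaks (19772 per library) reversed the cKO minus Ctrl difference in all window peaks (1.33), own-promoter peaks (0.667) and distal peaks (1), and in the counts of Dgcr2 (0.333) and Gnb1l (0.667). It also reversed the Mesp1-Cre minus Ctrl total (1) and the share at TSSs per 10000 such peaks (-0.593), and left 0 genes below Ctrl in every cKO library and 0 regions found in every Ctrl but in none of the cKO libraries. The widest 75% of peaks gave 0 for both of these counts and 0.667 for the Mesp1-Cre total, and an overlap of 50% of both intervals gave 0 regions. Gene bodies alone gave -0.849 for the share at TSSs and -0.333 for Hira, and a 10 kb flank gave -0.333 for Dgcr8. The cause was not tested. Leaving out a library gave 1 to 2 genes below Ctrl in every cKO library (2 without Ctrl replicate 3, which adds Txnrd2, or without cKO replicate 2, which adds Cldn5) and 1 to 2 such regions (2 without cKO replicate 2). It gave -3.5 to 0.5 for the Mesp1-Cre total (0.5 without Ctrl replicate 1), -0.157 to 0.874 for the share at TSSs (negative also without cKO replicate 2, -0.0178), and -0.167 to 0.833 for Slc25a1 (-0.167 without cKO replicate 2). The distal difference for cKO ranged from -5.33 to -2.33 (-2.33 without Ctrl replicate 1). The other results kept their direction under the alternatives run, or reached 0, with the distal share difference for cKO between 2.19 and 4.03 in all of them. Libraries of the same replicate number did not deviate together (correlations 0.0606, -0.00564 and 0.0250 over 14927 regions), and the replicate block, whose smallest p is 0.25, gave a difference of -5.67 in all window peaks at p = 0.25 (exact sign-flip permutation) and changed no call. Without scores or read counts, depth could not be matched between libraries, and no comparison of 3 against 3 can pass 0.05.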
